A study of Homo sapiens with 12 samples.

Results

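The genes described here are the 47 genes of the DNA replication machinery, of 57187 genes counted in 12 RNA sequencing libraries. They were chosen by name, for their textbook roles in origin licensing, the replicative helicase, the polymerases, the sliding clamp, single-strand binding and lagging-strand maturation, nucleotide synthesis and chromatin assembly at the fork. The rule itself uses no measured value, although earlier results of these data were known when the list was drawn up. All 47 passed the filter on low counts, which kept 17211 genes.

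Each library came from 1 of 4 established human lines. Breast cancers gave rise to MDA-MB-231 and HCC1954, and ovarian cancers to OVCAR8 and SKOV3, which the sample labels write as OVAR-8 and SKOV-3. Each line gave 1 control library, 1 library of cells transfected with the wild-type *SIVA* gene (*SIVA-WT*) and 1 of cells transfected with its missense mutant (*SIVA-D160N*). *SIVA1* encodes a protein best known as a regulator of apoptosis. The sample labels describe the control cells as parental and without treatment, whereas the study's methods also call them empty-vector cells. The transfected cells received linearized plasmid, were selected with hygromycin and were kept as stable polyclonal pools, so that a pool is not a single clone. All cells were grown in RPMI-1640 with serum. With 1 library for each line and condition, a difference inside a line could not be checked against replicates. Tests between conditions rest on the spread of the 4 lines.

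DNA replication begins before S phase, when ORC, CDC6 and CDT1 load the MCM2-7 helicase onto origins in an inactive form. The DBF4-dependent kinase CDC7, with MCM10, CDC45 and the GINS complex, turns the loaded helicase into an active fork. There DNA polymerase alpha-primase, delta and epsilon copy both strands, delta and epsilon with the PCNA clamp. Many of these genes are transcribed in late G1 and S phase under E2F factors, so that their RNA is widely used as a sign of how many cells in a culture are cycling. In bulk RNA, more cells in S phase and more RNA per cell cannot be told apart.

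Total counts ran from 35791455 to 45890398 per library. *SIVA1* itself was higher than in control in the transfected libraries of every line. In counts scaled to the library size (CPM), control cells of OVCAR8 had 66.3, those of SKOV3 52.6 and those of MDA-MB-231 28.1, and the transfected levels ranged from 26.5 CPM in HCC1954 *SIVA-D160N* to 177 CPM in OVCAR8 *SIVA-WT*. The library labelled HCC1954 control held 0 *SIVA1* counts, which allows a level of up to 0.072 CPM, taking 3 counts as the limit. That library stood apart from the other controls in this, so the comparisons of conditions are also given without it. Among markers of blood and endothelial cells, the 7 genes summed to 0.148 to 4.16 CPM in MDA-MB-231, OVCAR8 and SKOV3, with 2 to 4 of the 7 at 0 in each library. In HCC1954 they summed to 92 CPM in control, 79.7 in *SIVA-WT* and 46.8 in *SIVA-D160N*. That sum was mostly *PECAM1* and *CDH5*, while *PTPRC* was between 0.312 and 0.627 CPM. The part of these markers in the results on the replication genes was not tested. *ERBB2* stood between 5740 and 12200 CPM in HCC1954 and SKOV3 and at 78.1 or less in MDA-MB-231 and OVCAR8. Of 3 ovarian lineage markers, only *PAX8* followed the tissue. It stood at 61.1 CPM or more in both ovarian lines and at 3.43 or less in both breast lines. *MUC16* was highest in HCC1954, at 66.1 to 115 CPM, and at most 1.58 in the ovarian lines. *WT1* stood at 5.55 to 8.06 CPM in HCC1954, at 5.89 to 6.83 in OVCAR8 and at most 1.11 in SKOV3.

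E2F sites, a feature that the choice by name had not used, were matched more often in the promoters of these genes than in those of all genes, although fewer of them held a match than lacked one. RefSeq promoter windows of GRCh38.p14, each running from 250 bases before to 50 bases after a start site, were matched for 41 of the 47 genes. The windows were searched on both strands for 4 spellings of the E2F site, TTTCCCGC, TTTCGCGC, TTTGCCGC and TTTGGCGC. At least 1 match was found in 20 of the 41 genes (48.8%), against 3.99% of all 27305 genes with such a window and 6.43% of the 10884 of them that passed the filter. CCAAT occurred in 61% of the genes against 39.7% of all, and TTTGAA or TTCGAA, the spellings of the CHR element of late cell cycle genes, in 7.32% against 19.5%. The genes without a matched window are *RPA2*, *MCM5*, *RPA3*, *GINS4*, *MCM4* and *POLD3*. The matches below are examples from genes whose values are given further on. Other such genes, *POLA2* among them, also hold a match that is not shown. Each run reads 5′ to 3′ on the strand of the gene, with the match in capitals. GCGGGAAA, GCGCGAAA and GCGCCAAA are the same sites read from the opposite strand, and in *MCM2* and *MCM6* a match on 1 strand overlaps a match on the other.
CDC6, chr17:40287866-40287913, + strand: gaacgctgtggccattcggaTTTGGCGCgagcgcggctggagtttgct
CDT1, chr16:88803734-88803781, + strand: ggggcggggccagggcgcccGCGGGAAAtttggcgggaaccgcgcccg
MCM2, chr3:127598393-127598440, + strand: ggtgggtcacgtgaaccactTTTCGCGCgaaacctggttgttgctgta
MCM6, chr2:135876568-135876615, - strand: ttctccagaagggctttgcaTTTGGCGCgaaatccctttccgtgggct
MCM6, chr2:135876506-135876553, - strand: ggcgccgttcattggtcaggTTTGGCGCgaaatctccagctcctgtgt
CDC7, chr1:91501024-91501071, + strand: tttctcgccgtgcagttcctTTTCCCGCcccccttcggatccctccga
CDC7, chr1:91501058-91501105, + strand: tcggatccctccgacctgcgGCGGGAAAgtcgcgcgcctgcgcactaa
GINS2, chr16:85688958-85689005, - strand: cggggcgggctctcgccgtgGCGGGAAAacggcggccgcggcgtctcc
POLA1, chrX:24693761-24693808, + strand: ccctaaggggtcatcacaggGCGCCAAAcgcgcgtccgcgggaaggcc
POLE2, chr14:49688192-49688239, - strand: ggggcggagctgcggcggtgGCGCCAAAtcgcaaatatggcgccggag
PCNA, chr20:5126654-5126701, - strand: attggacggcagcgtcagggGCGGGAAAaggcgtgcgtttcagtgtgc
TYMS, chr18:657594-657641, + strand: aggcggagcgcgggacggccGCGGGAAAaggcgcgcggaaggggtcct
UHRF1, chr19:4909467-4909514, + strand: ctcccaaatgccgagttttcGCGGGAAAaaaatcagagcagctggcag
A match is a description of these letters and not a measured binding site. *CDC7* holds its pair of matches at positions -68 and -34 from the start, and *MCM6* holds 4 overlapping matches in 2 clusters.

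Across the 4 lines, the replication genes lay slightly higher in *SIVA-D160N* than in control cells, but none passed the threshold. The test was edgeR's quasi-likelihood test with a term for the line, and a gene was called when its false discovery rate by Benjamini-Hochberg (FDR) was under 0.05. In *SIVA-D160N* vs control, 44 of the 47 fitted log2 fold changes were above 0, where 48.3% of all genes were. Their median was 0.22, against -0.01 over all genes. That median rested in part on MDA-MB-231, since it was 0.11 without that line, with 41 genes above 0, and 0.10 without only its control library, with 40 above 0. No replication gene was called (0 of 47, with 0.00581% of all genes called), and the lowest FDR was 0.193. At an unadjusted p under 0.05 there were 10, all higher, where 6.52% of all genes met that mark in this direction. DESeq2 called 1 of the 47, *CDC7*, and limma-voom 0, where they called 340 and 67 of all 17211 genes. No replication gene reached a log2 fold change of 1.5, the size the study used. The ratio was above 0 in all 4 lines for 14 of the 47, where 6.95% of all genes were, and these were *ORC6*, *MCM4*, *MCM10*, *GINS1*, *GINS4*, *CDC7*, *DBF4*, *POLA1*, *PRIM1*, *PRIM2*, *RFC3*, *RRM1*, *RRM2* and *UHRF1*. The count at an unadjusted p under 0.05 moved with single lines: it was 5 without MDA-MB-231, 6 without only its control library, 6 without the HCC1954 *SIVA-D160N* library, 24 without OVCAR8, 22 without only the OVCAR8 control library and 20 without only the OVCAR8 *SIVA-D160N* library. Without the HCC1954 control library it was 12, with 47 of 47 above 0 and a median of 0.25. In these fits the count over all genes, in either direction, ran from 1763 to 3090, against 2445 in the full fit.

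*SIVA-WT* vs control gave a smaller shift. Of the 47 genes, 35 had a fitted log2 fold change above 0, where 48.4% of all genes did, with a median of 0.05 against -0.005 over all genes. None was called by edgeR (0% of all genes), DESeq2 (2 of all 17211 genes) or limma-voom (1 of 17211). None had an unadjusted p under 0.05, a mark that 1.47% of all genes met in the upward direction. No gene was higher in all 4 lines, where 4.96% of all genes were. The 35 rested on MDA-MB-231, since the fit without that line left 10 of 47 above 0, with a median of -0.05, the fit without its control library left 12, and the fit without its *SIVA-WT* library left 20. Other libraries moved the shift upward. The median was 0.12 without HCC1954 and without only its *SIVA-WT* library, with 43 and 44 genes above 0, and 0.11 and 0.12 without OVCAR8 and without only its control library, with 45 and 44. It was 0.08 without the HCC1954 control library, with 42 above 0. It was 0.03 without SKOV3 and without only its control library, with 32 and 35 above 0, 0.01 without the SKOV3 *SIVA-WT* library, with 31, and 0.03 without the OVCAR8 *SIVA-WT* library, with 37.

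Between the transfectants, all 47 genes had a fitted log2 fold change above 0 in *SIVA-D160N* vs *SIVA-WT*, where 49.4% of all genes were. The median was 0.15, against -0.003 over all genes, and the values ran from 0.008 in *LIG1* to 0.39 in *UHRF1*. None was called by edgeR (0% of all genes), DESeq2 (14 of all 17211 genes) or limma-voom (1 of 17211). Only *RRM2* and *ORC6* had an unadjusted p under 0.05 in edgeR, where 2.58% of all genes did in that direction. The ratio was above 0 in all 4 lines for 23 of the 47, where 12.1% of all genes were. The 3 comparisons share their libraries in pairs and are not independent of each other. Leaving out the HCC1954 line lowered the median to 0.08 with 43 of 47 above 0 and 0 at an unadjusted p under 0.05, and the count at that mark was also 0 without the *SIVA-D160N* library of MDA-MB-231 and without either transfected library of HCC1954. It was 11 without the MDA-MB-231 control library, 12 without the OVCAR8 *SIVA-D160N* library, 6 without the MDA-MB-231 *SIVA-WT* library, 5 without the SKOV3 *SIVA-D160N* library and without the whole MDA-MB-231 line, and 4 without the SKOV3 control library. It was 1 without SKOV3, without its *SIVA-WT* library and without the HCC1954 control library. With all 4 control libraries left out it was 13. In these fits the count over all genes, in either direction, ran from 348 to 2155, against 1184 in the full fit.

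The lines differed in the order of the 3 conditions more than the averages show. In MDA-MB-231, 45 of the 47 genes were above control in *SIVA-D160N*, where 47.2% of all genes were, with a median log2 ratio of 0.51, and 18 were at least 1.5-fold higher, where 8.72% of all genes were. In the same line, 45 were above control in *SIVA-WT* as well (46.7% of all genes), with a median of 0.41, and 12 were at least 1.5-fold higher against 7.31% of all genes. The control library was the lowest of the 3 for 45 genes there, where it was for 37.2% of all genes. HCC1954 behaved otherwise, with the *SIVA-WT* library the lowest of the 3 for 39 of the 47 genes against 28.2% of all genes. There 40 of the 47 were above control in *SIVA-D160N* (48.1% of all genes) and 7 in *SIVA-WT* (51.4%). Its median log2 ratio was 0.20 for *SIVA-D160N* vs control, -0.19 for *SIVA-WT* vs control and 0.37 for *SIVA-D160N* vs *SIVA-WT*. At least 1.5-fold higher in *SIVA-D160N* than in control were *UHRF1* and *MCM4* (2 of 47, against 11.1% of all genes), and higher than in *SIVA-WT* by that factor were *CDT1*, *MCM4*, *MCM5*, *MCM10*, *GINS2*, *RRM2* and *UHRF1* (7 of 47, against 7.4%).

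OVCAR8 did not show the higher values of *SIVA-D160N*. There 18 of the 47 genes were above control in *SIVA-D160N*, a share near the 46.2% of all genes, and 12 in *SIVA-WT*, where 49.6% of all genes were, with median log2 ratios of -0.12 and -0.07, and 0 were at least 1.5-fold higher in *SIVA-D160N*, where 7.93% of all genes were. In SKOV3, 43 were above control in *SIVA-D160N* (50.3% of all genes) and 36 in *SIVA-WT* (51.2%), with medians of 0.16 and 0.07, and 1 gene, *TK1*, was at least 1.5-fold higher in *SIVA-D160N* against 7.04% of all genes. *SIVA-D160N* was the highest of the 3 libraries for 40 genes in MDA-MB-231 (35.5% of all genes), 40 in HCC1954 (35.8%), 41 in SKOV3 (36.4%) and 17 in OVCAR8 (32.3%). The summed level of the 47 genes was 4751, 6308 and 6870 CPM in control, *SIVA-WT* and *SIVA-D160N* of MDA-MB-231, 5456, 4616 and 6265 in HCC1954, 7205, 6753 and 6835 in OVCAR8, and 4390, 4639 and 4994 in SKOV3. In OVCAR8 the sum was thus lowest in *SIVA-WT*, while the median log2 ratio was lower in *SIVA-D160N*.

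**Figure D1:**
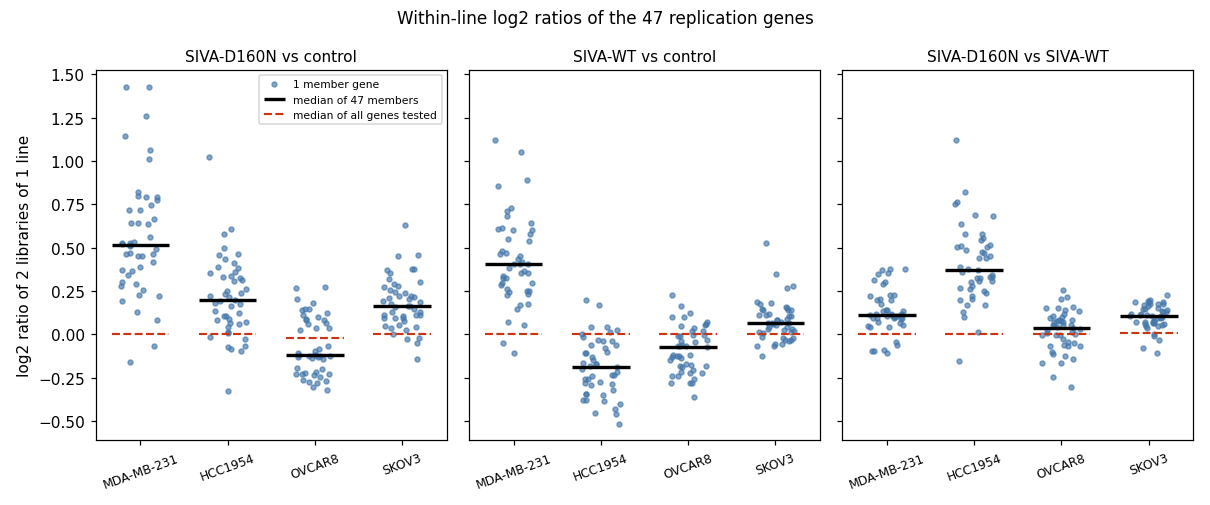
Log2 ratio between 2 libraries of 1 line (vertical axis) for each of the 47 genes, by line, in the 3 comparisons. Points are genes, black bars their median and dashed bars the median of all 17211 genes; the points of MDA-MB-231 stand highest against control, with a median of 0.51 in *SIVA-D160N*, and those of HCC1954 highest in *SIVA-D160N* vs *SIVA-WT*, with a median of 0.37.

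A test of the difference between the breast and the ovarian lines in *SIVA-D160N* vs control, as an interaction in the same model, called 0 of the 47 genes by edgeR, DESeq2 and limma-voom. Of all 17211 genes these tools called 1, 12 and 0. The fitted difference, ovarian minus breast, was below 0 for 45 genes, with a median of -0.29 against 0.01 over all genes. *UHRF1* (-0.81 ± 0.27, SE), *MCM4* (-0.73 ± 0.28), *GINS3* (-0.47 ± 0.19) and *GMNN* (-0.57 ± 0.25) had an unadjusted p under 0.05, where 2.13% of all genes did in that direction, and the lowest FDR among them was 0.964. Without the HCC1954 control library the median difference was -0.53, with 45 genes below 0, 21 of them at an unadjusted p under 0.05 and 0 called. Of all 18436 genes in that fit, 1408 met that mark in either direction. With 2 lines of each tissue, the tissue and the particular lines cannot be told apart.

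Origin licensing genes load the helicase. All 6 had a fitted value above 0 in *SIVA-D160N* vs control, with a median log2 fold change of 0.26. *ORC6*, the smallest subunit of the origin recognition complex, stood at 47.5, 62 and 70 CPM in control, *SIVA-WT* and *SIVA-D160N* of MDA-MB-231, and at 64.6, 63.9 and 80 in HCC1954. It stood at 83.8, 85 and 91.4 CPM in OVCAR8 and at 50.4, 52.7 and 60.1 in SKOV3. In every line the *SIVA-D160N* library was the highest, although the lines overlapped. The log2 fold change of *ORC6* was 0.31 ± 0.09 (SE, n = 4 lines, edgeR FDR 0.206) against control and 0.20 ± 0.09 (FDR 0.725) against *SIVA-WT*. *ORC1*, the ATPase subunit of the same complex, had the largest log2 ratio of all 47 genes in MDA-MB-231, 1.43, from 18.8 to 50.6 CPM, and a ratio of -0.13 in OVCAR8. Its fitted log2 fold change was 0.47 ± 0.21 (FDR 0.346).

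*CDC6*, the ATPase that loads the helicase together with CDT1, stood at 94.3, 138 and 147 CPM in MDA-MB-231, at 164, 135 and 187 in HCC1954, at 129, 114 and 119 in OVCAR8 and at 103, 114 and 133 in SKOV3, in the order control, *SIVA-WT*, *SIVA-D160N*. The *SIVA-D160N* library was the highest of the 3 in every line but OVCAR8. *CDT1* stood at 57.3, 79.9 and 74.9 CPM in MDA-MB-231, at 63, 46.8 and 79.6 in HCC1954, at 114, 111 and 94.1 in OVCAR8 and at 27.9, 35.5 and 38.3 in SKOV3. Here all 3 SKOV3 libraries lay below and all 3 OVCAR8 libraries above those of the other lines. Its log2 fold change against control was 0.23 ± 0.16 (FDR 0.556). Per transcript length, *CDT1* was below its inhibitor *GMNN* in every line, at a ratio of 0.492 ± 0.0401 (SD over the 3 conditions) in HCC1954 and 0.284 ± 0.0369 in SKOV3.

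Of the MCM2-7 helicase genes, all 6 had a fitted value above 0 in *SIVA-D160N* vs control, with a median of 0.21, and *MCM4* was the only one with an unadjusted p under 0.05. *MCM4* stood at 117, 212 and 258 CPM in control, *SIVA-WT* and *SIVA-D160N* of MDA-MB-231, at 254, 241 and 388 in HCC1954, at 524, 547 and 562 in OVCAR8 and at 328, 330 and 363 in SKOV3. The *SIVA-D160N* library was highest in each line, and its distance to control was larger in both breast lines than in both ovarian lines. Its log2 fold change was 0.49 ± 0.17 against control (SE, n = 4 lines, FDR 0.245) and 0.20 ± 0.17 (FDR 1) for *SIVA-WT*. *MCM2*, a widely used proliferation marker, stood at 123, 204 and 214 CPM in MDA-MB-231, at 115, 97.3 and 135 in HCC1954, at 240, 240 and 223 in OVCAR8 and at 137, 148 and 155 in SKOV3. The OVCAR8 libraries were the 3 highest in *MCM2* and did not overlap the other lines. Its log2 fold change was 0.26 ± 0.15 (FDR 0.44).

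The helicase activation genes had 8 of 8 fitted values above 0 in *SIVA-D160N* vs control and the largest median of the roles with more than 3 genes, 0.27. Their 3 genes at an unadjusted p under 0.05 were *CDC7*, *MCM10* and *GINS4*. *CDC7*, the kinase that phosphorylates the loaded helicase, had the lowest p of the 47. It stood at 49.5, 60.7 and 69.7 CPM in MDA-MB-231, at 21.4, 24.1 and 28.9 in HCC1954, at 96, 99.4 and 110 in OVCAR8 and at 22.1, 21.8 and 23.9 in SKOV3, in the order control, *SIVA-WT*, *SIVA-D160N*. The *SIVA-D160N* library was highest in each line, and the libraries of HCC1954 and SKOV3 overlapped. The log2 fold change was 0.31 ± 0.09 (SE, n = 4 lines, edgeR FDR 0.193) against control. *DBF4*, the activating subunit of CDC7, stood at 38.1, 39.5 and 43.6 CPM in MDA-MB-231, 56.4, 51.6 and 58.1 in HCC1954, 130, 129 and 144 in OVCAR8 and 24.2, 26.1 and 28.2 in SKOV3. It was also highest in *SIVA-D160N* in each line, with a log2 fold change of 0.15 ± 0.07 (FDR 0.392).

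*MCM10*, a fork scaffold needed to start unwinding, stood at 36.1, 59.1 and 75.5 CPM in MDA-MB-231, at 55.6, 49 and 78.6 in HCC1954, at 72.8, 76.4 and 80.7 in OVCAR8 and at 48.5, 50 and 56.5 in SKOV3. Every *SIVA-D160N* library was the highest of its line, and the log2 fold change was 0.48 ± 0.15 against control (FDR 0.221). *GINS4*, a subunit of the GINS complex that joins MCM2-7 and CDC45, stood at 30.6, 49.1 and 52.9 CPM in MDA-MB-231, at 120, 122 and 151 in HCC1954, at 132, 144 and 149 in OVCAR8 and at 77.7, 75.8 and 79.6 in SKOV3. Its log2 fold change was 0.33 ± 0.12 (FDR 0.278) in *SIVA-D160N* and 0.19 ± 0.12 (FDR 1) in *SIVA-WT*, the lowest p of that comparison. *GINS2* of the same complex differed most between conditions inside MDA-MB-231, at 32.3, 70.4 and 87 CPM, while its fitted log2 fold change was 0.40 ± 0.23 (FDR 0.467), with a log2 ratio of -0.24 in OVCAR8.

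**Figure D2:**
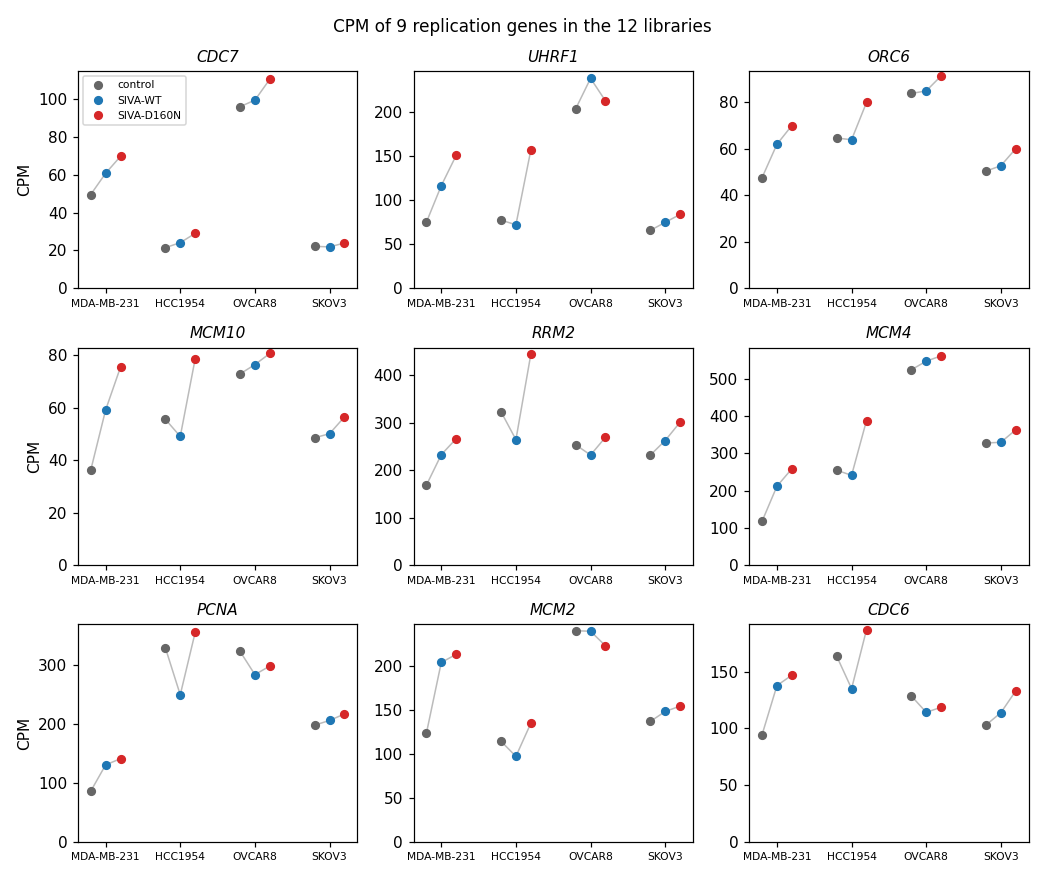
CPM (vertical axis, from 0) of 9 replication genes in the control, *SIVA-WT* and *SIVA-D160N* libraries of each line, 1 point for each library, with a line joining the 3 libraries of a cell line. The 6 genes with the lowest p in *SIVA-D160N* vs control come first, from *CDC7* at 21.4 to 110 CPM to *MCM4* at 117 to 562, and are followed by *PCNA*, *MCM2* and *CDC6*.

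Of the 9 polymerase and primase genes, 8 had a fitted value above 0 in *SIVA-D160N* vs control, with a median of 0.22. *POLA1* and *PRIM2*, which encode the catalytic subunit of DNA polymerase alpha and the large primase subunit, had an unadjusted p under 0.05. *POLA1* stood at 77.4, 90.7 and 100 CPM in MDA-MB-231, at 54.1, 52.7 and 74.7 in HCC1954, at 60.1, 64.6 and 65 in OVCAR8 and at 65.7, 62.6 and 70.7 in SKOV3. *SIVA-D160N* was the highest library of each line, narrowly so in OVCAR8. The log2 fold change was 0.27 ± 0.10 (FDR 0.266). *PRIM2* had a log2 fold change of 0.22 ± 0.08 (FDR 0.265). *POLD1*, the catalytic subunit of DNA polymerase delta, stood at 40.4, 60.5 and 66.5 CPM in MDA-MB-231, at 70.1, 65 and 81.8 in HCC1954, at 72.2, 74.1 and 60 in OVCAR8 and at 29.7, 32.7 and 35 in SKOV3, and OVCAR8 again was the line in which *SIVA-D160N* was lowest. Its accessory subunit *POLD2* was the polymerase gene with a fitted value below 0, at -0.03 ± 0.10 (FDR 0.925).

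The clamp and clamp loader genes had 6 of 6 fitted values above 0 and 0 at an unadjusted p under 0.05, with a median of 0.15. *PCNA*, the sliding clamp, stood at 85.6, 130 and 141 CPM in control, *SIVA-WT* and *SIVA-D160N* of MDA-MB-231, at 329, 249 and 355 in HCC1954, at 323, 283 and 298 in OVCAR8 and at 198, 206 and 217 in SKOV3. All 3 MDA-MB-231 libraries lay below every other library. The log2 fold change of *PCNA* was 0.20 ± 0.14 (SE, n = 4 lines, FDR 0.562) in *SIVA-D160N* and 0.01 ± 0.14 (FDR 1) in *SIVA-WT*, and the second turned negative without MDA-MB-231, at -0.17. *RFC1*, the large subunit of the clamp loader, did not follow the other genes and had a log2 ratio of -0.16 in MDA-MB-231 and 0.27 in OVCAR8.

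Single-strand binding and Okazaki fragment maturation was the role with the lowest share of genes above 0 in *SIVA-D160N* vs control, 3 of 5, with 0 at an unadjusted p under 0.05. *FEN1*, the flap endonuclease, went from 85 to 203 CPM in MDA-MB-231 and from 218 to 187 in OVCAR8, so that its log2 fold change was 0.27 ± 0.21 (FDR 0.586). *LIG1*, the ligase that seals the fragments, and *RPA3*, the small RPA subunit, had fitted values of -0.03 ± 0.10 (FDR 0.928) and -0.05 ± 0.10 (FDR 0.863). *RPA3* stood at 93.8, 104 and 112 CPM in MDA-MB-231, at 63, 55.9 and 50.2 in HCC1954, at 65.1, 53.6 and 59.6 in OVCAR8 and at 20.3, 21.5 and 20.3 in SKOV3. The lines MDA-MB-231 and SKOV3 were clear of all others, at the top and at the bottom.

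The 4 nucleotide synthesis genes all had a fitted value above 0 in *SIVA-D160N* vs control. *RRM2*, the S-phase subunit of ribonucleotide reductase, stood at 168, 233 and 266 CPM in MDA-MB-231, at 323, 264 and 445 in HCC1954, at 254, 232 and 270 in OVCAR8 and at 232, 262 and 301 in SKOV3. It was highest in *SIVA-D160N* in each line, with a log2 fold change of 0.39 ± 0.13 against control (FDR 0.223) and of 0.34 ± 0.13 against *SIVA-WT* (FDR 0.719), the lowest p of that comparison. In the same comparison HCC1954 stood out with a log2 ratio of 0.75, against 0.20 to 0.22 in the other lines. *TYMS*, thymidylate synthase, stood at 412, 526 and 568 CPM in MDA-MB-231, 129, 107 and 137 in HCC1954, 320, 274 and 290 in OVCAR8 and 173, 188 and 214 in SKOV3. Its log2 fold change was 0.17 ± 0.11 (FDR 0.51). Exons of *ENOSF1* on the opposite strand cover 39.9% of the exon bases of *TYMS*, and the strand setting of the counting was not given in the sources used here, so its level is less certain. Overlaps with a protein-coding gene on the same strand cover 16.8% of the exon bases of *POLA2*, 10.9% of *PRIM1* and 8.63% of *POLD1*. Their part in the levels of these genes was not tested.

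Of the 3 chromatin genes, *UHRF1*, which links DNA methylation to the new strand, had the largest fitted log2 fold change of the 47 genes in *SIVA-D160N* vs control. It stood at 74.7, 116 and 151 CPM in MDA-MB-231, at 77.3, 72 and 157 in HCC1954, at 204, 238 and 213 in OVCAR8 and at 65.6, 74.8 and 83.8 in SKOV3. The log2 ratio of *SIVA-D160N* to control was 1.01 and 1.02 in the breast lines, while in OVCAR8 *SIVA-WT* was the highest library. The fitted value was 0.63 ± 0.18 (SE, n = 4 lines, edgeR FDR 0.205) against control and 0.39 ± 0.18 (FDR 0.737) against *SIVA-WT*. *CHAF1A* and *CHAF1B*, subunits of the histone chaperone CAF-1, had fitted values of 0.17 ± 0.13 and 0.23 ± 0.13 (FDR 0.581 and 0.457).

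**Figure D3:**
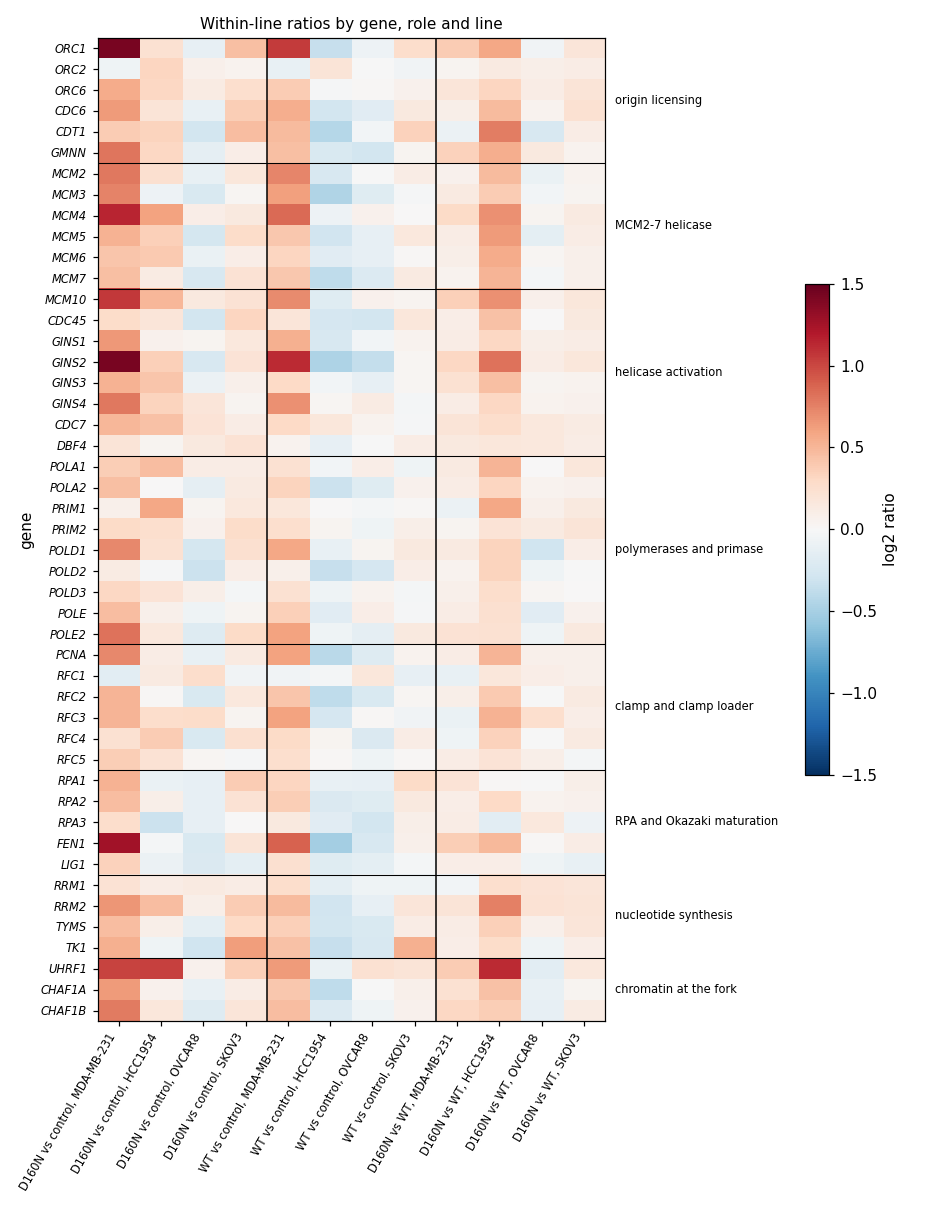
Log2 ratio within each line (colour, red higher and blue lower) for the 47 genes in rows, grouped by role, and for the 3 comparisons in 4 lines each in columns. The first column, *SIVA-D160N* vs control in MDA-MB-231, is red in 45 of 47 rows, and the third, the same comparison in OVCAR8, in 18.

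The 47 genes varied together across the conditions of a line. After the mean of each line was taken from the log2 CPM, the median correlation over the 1081 pairs of genes was 0.78 across the 12 libraries, and 94.5% of the pairs were above 0. Without MDA-MB-231 the median was 0.676 over 9 libraries. The points share their libraries and, 3 by 3, a cell line, so this is a description. A correlation above 0.8 with the mean of the others was seen for 35 of the 47 genes, and the same was true of 4.79% of all genes against the mean of the 47. *GINS2* (0.978), *CDC6* (0.977) and *MCM2* (0.97) were closest to that mean. *RFC1* (-0.15), *ORC2* (0.047) and *RPA3* (0.26) were furthest from it. The genes with an E2F match and those without one had median log2 fold changes of 0.23 and 0.17 in *SIVA-D160N* vs control, over 20 and 21 genes. The medians were 0.049 and 0.052 in *SIVA-WT* vs control and 0.185 and 0.145 in *SIVA-D160N* vs *SIVA-WT*. These differences were not tested.

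Other lists of the cell cycle were compared by their counts. Of all 17211 genes in *SIVA-D160N* vs control, 48.3% were above 0 and 6.52% were higher at an unadjusted p under 0.05. At that mark 1322 of the 17211 were lower. Of 16 mitotic genes, 16 had a fitted value above 0 in *SIVA-D160N* vs control and 11 had an unadjusted p under 0.05, with a median of 0.26 and 0 genes called. *BUB1* and *BUB1B*, kinases of the spindle checkpoint, and *AURKA* were lowest in p, at 0.27 ± 0.07, 0.29 ± 0.09 and 0.31 ± 0.10. Among 27 accessory replication factors, 25 were above 0 with 12 higher and 1 lower at an unadjusted p under 0.05. *CLSPN*, a fork and checkpoint mediator, had a log2 fold change of 0.59 ± 0.13 (FDR 0.147), *DSCC1*, a subunit of an alternative clamp loader, of 0.43 ± 0.11 (FDR 0.166) and *TOPBP1*, which helps to activate the helicase and ATR, of 0.32 ± 0.08 (FDR 0.175). All 3 were higher in 4 of 4 lines.

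Among the 18 E2F, RB and S-phase kinase genes, 14 were above 0, with 6 higher and 1 lower at an unadjusted p under 0.05 and a median of 0.14. The shares of all genes were again 48.3% above 0 and 6.52% higher at that mark. *E2F8*, a repressor of the E2F family, and the cyclins *CCNE2* and *CCNA2* stood at 0.51 ± 0.14, 0.56 ± 0.17 and 0.34 ± 0.11. Of the 7 replication checkpoint genes that passed the filter, 5 were above 0 and 2, the kinases *ATR* and *CHEK1*, had an unadjusted p under 0.05, at 0.31 ± 0.09 and 0.31 ± 0.10. *HUS1* of the checkpoint clamp stood at 0.13 ± 0.13 (FDR 0.677). Other nucleotide supply gave 6 of 8 above 0, with 3 higher and 1 lower at that mark. *DCK* stood at 0.24 ± 0.10, and the lower gene was *TK2*, the mitochondrial thymidine kinase, at -0.65 ± 0.13 (FDR 0.13), lower in all 4 lines. No gene of these 5 lists was called.

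The lines also differed from each other in these genes. The range of the 4 line means had a median of 1.03 on the log2 scale over the 47 genes, against 1.6 over all genes. OVCAR8 had the highest mean for 23 genes and SKOV3 the lowest for 25. How often each line was highest or lowest over all genes was not counted. The highest line was clear of every library of the others for 25 genes, where it was for 58.5% of all genes, and the lowest for 20, where it was for 53.2%, so that the lines were not set apart more often in the 47 genes than elsewhere. Each line was tested against the mean of the other 3, with the 3 conditions of a line as its libraries, and called at an FDR under 0.05 and a log2 difference of at least 1. The median difference was 0.43 for OVCAR8 and -0.39 for SKOV3, against 0.03 and 0.06 over all genes, and 0.01 and -0.01 for MDA-MB-231 and HCC1954. The 3 libraries of a line are 1 culture line under 3 conditions, so these tests compare the lines as grown here.

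In OVCAR8, 8 of the 47 genes were called higher (19.4% of all genes) and 0 lower (14.9%). They were *DBF4* (1.79 ± 0.06, SE), *CDC7* (1.67 ± 0.08), *RFC2* (1.45 ± 0.11), *UHRF1* (1.25 ± 0.16), *GINS3* (1.21 ± 0.10), *GMNN* (1.20 ± 0.12), *MCM4* (1.04 ± 0.15) and *CDT1* (1.02 ± 0.15). Among the 47 genes, both subunits of the DBF4-dependent kinase thus had the largest differences in that line. Over all genes, the highest log2 difference there was 12.79. In SKOV3, 1 gene was called higher (19.9% of all genes), *GINS1* at 1.17 ± 0.10, and 6 lower (14.7%). The lower ones were *RPA3* (-1.76 ± 0.11), *DBF4* (-1.36 ± 0.08), *MCM7* (-1.30 ± 0.13), *CDC7* (-1.23 ± 0.09), *CDT1* (-1.21 ± 0.16) and *POLD1* (-1.01 ± 0.14).

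In MDA-MB-231, 4 genes were called higher (16% of all genes), *TYMS* (1.39 ± 0.10), *POLE2* (1.36 ± 0.12), *RPA3* (1.33 ± 0.09) and *PRIM2* (1.16 ± 0.07), and 3 lower (17.1%), *POLA2* (-1.58 ± 0.11), *GINS4* (-1.38 ± 0.13) and *PCNA* (-1.18 ± 0.15). *POLE2*, the second subunit of DNA polymerase epsilon, stood at 40.1, 60.9 and 70.9 CPM in control, *SIVA-WT* and *SIVA-D160N* of MDA-MB-231, at 14.5, 13.9 and 16.3 in HCC1954, at 40.0, 36.4 and 34.9 in OVCAR8 and at 17.4, 19.2 and 21.2 in SKOV3. *POLA2*, the regulatory subunit of polymerase alpha, stood at 19.5, 24.6 and 26.7 CPM in MDA-MB-231, at 83.2, 66.7 and 83.5 in HCC1954, at 63, 55.5 and 57.6 in OVCAR8 and at 72.9, 76.4 and 79.7 in SKOV3, in the same order. MDA-MB-231 was the highest line in *POLE2*, with a mean of 57.3 CPM against 37.1 in OVCAR8, and the lowest in *POLA2*. The control libraries of MDA-MB-231 and OVCAR8 were close in *POLE2*, at 40.1 and 40.0 CPM. HCC1954 had 0 genes called higher (20.8% of all genes) and 3 lower (15.8%), *TYMS* (-1.30 ± 0.11), *POLE2* (-1.21 ± 0.14) and *CDC7* (-1.07 ± 0.09). Of the 4 lines, none had a share of genes called higher above that of all genes, and the share called higher in OVCAR8 was close to it.

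**Figure D4:**
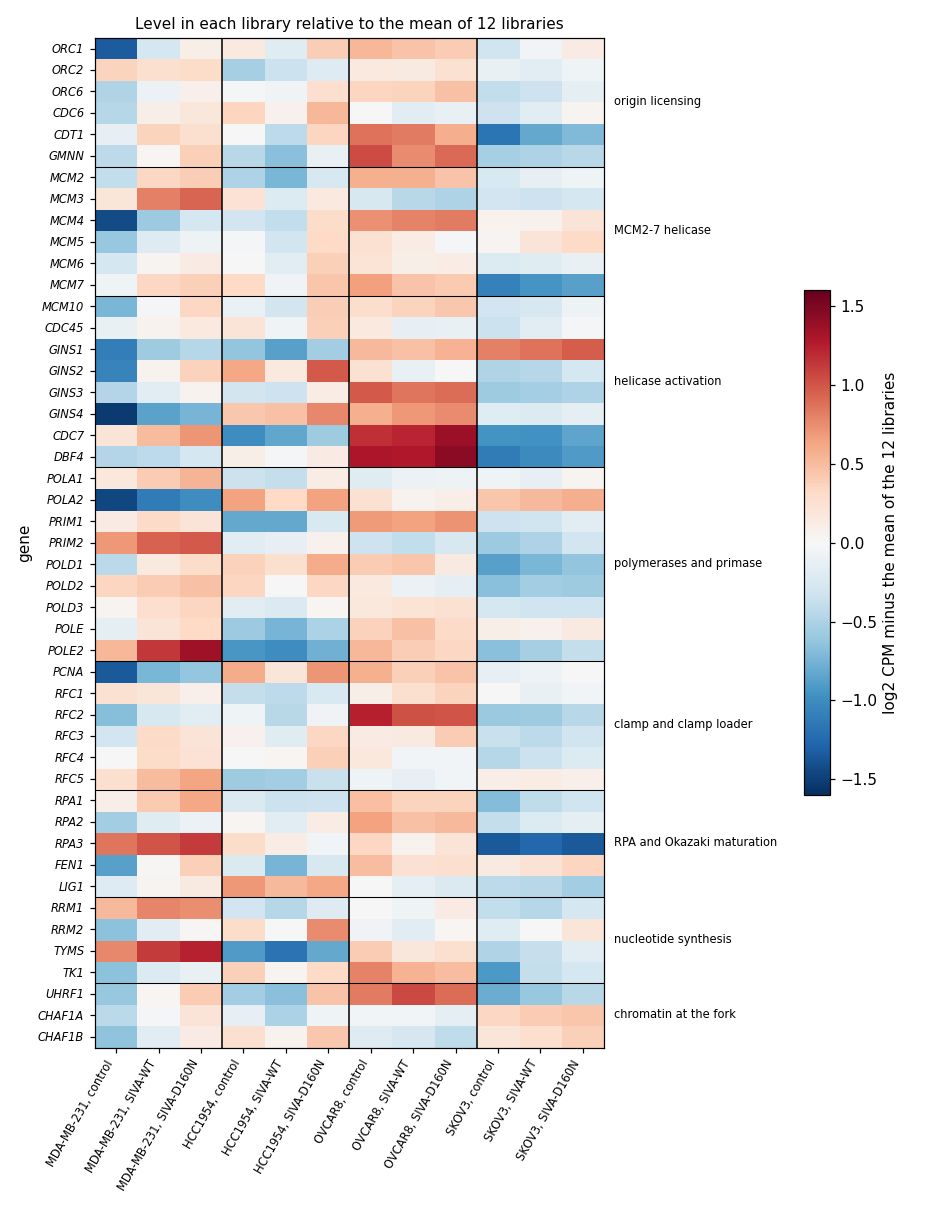
Log2 CPM of each of the 47 genes (rows, by role) in each of the 12 libraries (columns, by line and condition) minus the mean of the 12 (colour, red higher and blue lower). The 3 columns of a line resemble each other, with OVCAR8 the highest line for 23 genes and SKOV3 the lowest for 25, counts that were not taken over all genes.

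Subunits of 1 complex did not stand at equal RNA levels. Levels between genes are given as CPM per kilobase of the canonical transcript, as a mean ± SD over the 3 libraries of a line. In MDA-MB-231, *MCM3* stood at 158 ± 40.1 and *MCM5* at 39.3 ± 7.11, the highest and the lowest of the 6 helicase genes, a factor of 4.1 ± 0.138 that became 7.59 when the union of all exons was taken as the length. In OVCAR8, *MCM7* stood at 170.2 ± 15.5 and *MCM5* at 51.8 ± 4.68, a factor of 3.29 ± 0.134. In SKOV3 the 6 genes were closest, within a factor of 1.97 ± 0.0623. *MCM4* over *MCM3* was 0.298 ± 0.0408 in MDA-MB-231 and 1.8 ± 0.207 in OVCAR8, without overlap. By the union length, the highest and lowest of the helicase genes remained the same in MDA-MB-231 and OVCAR8 and changed in HCC1954 and SKOV3. A ratio of 2 genes depends on the lengths used, whereas its comparison between lines does not.

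In the polymerase alpha-primase complex, *PRIM2* stood at 57.6 ± 6.07 and *POLA2* at 6.66 ± 1.05 in MDA-MB-231, a factor of 8.7 ± 0.493, and in the other lines the factor between the highest and lowest of the 4 genes was 1.89 to 3.45. The ratio of *POLA2* to *POLA1* was 0.408 ± 0.0158 in MDA-MB-231 and between 1.33 and 2.38 in the 9 other libraries. Another gene on the same strand overlaps 16.8% of the exon bases of *POLA2*, and its part in these values was not tested. In the RPA complex, the ratio of *RPA3* to *RPA1* was 0.854 ± 0.0814 in MDA-MB-231 and 0.309 ± 0.0401 in SKOV3. *RRM2* over *RRM1*, the subunits of ribonucleotide reductase, was 0.539 ± 0.0833 in MDA-MB-231 and 1.67 ± 0.304 in HCC1954, and *DBF4* over *CDC7* was 0.6 ± 0.0683 and 1.99 ± 0.29 in the same lines. In the clamp loader, *RFC2* was highest in OVCAR8 at 113.4 ± 10.5, while its levels in the other lines ran from 33.2 to 51.3.

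**Figure D5:**
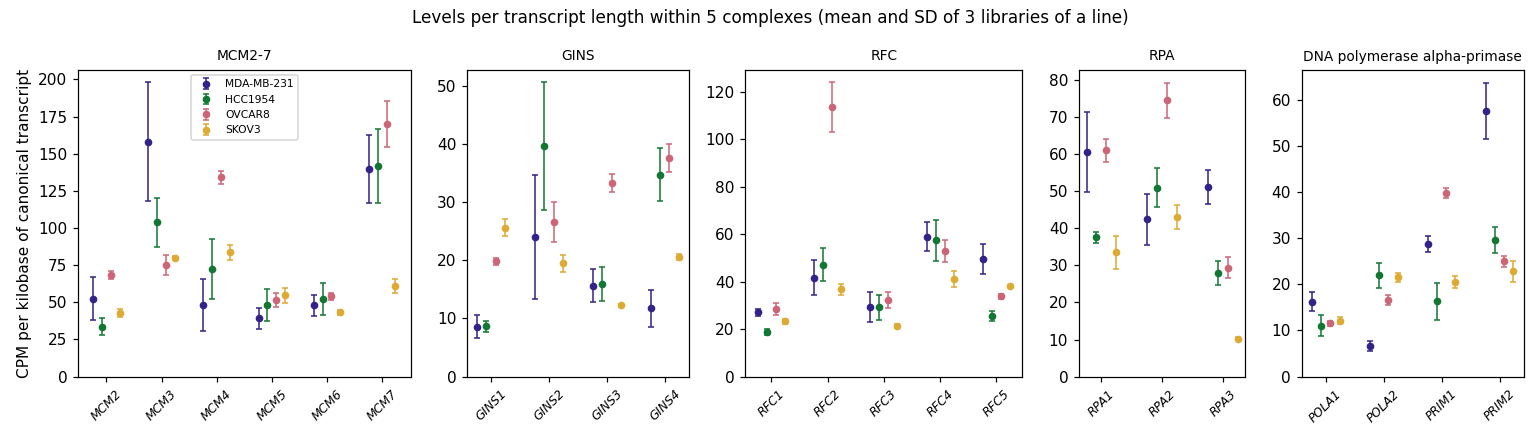
CPM per kilobase of canonical transcript (vertical axis, from 0) of the subunits of 5 replication complexes in each line. Points are means and bars the SD of the 3 libraries of a line; *PRIM2* in MDA-MB-231 at 57.6 and *RFC2* in OVCAR8 at 113.4 stand apart from the other lines.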

How the data were processed

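RNA was extracted with Trizol and made into libraries with a stranded mRNA kit. The authors aligned the reads to GRCh38 with STAR 2.5.3a, as the submitters' processing notes name it, and deposited the counts per gene from that tool, not normalized, for 57187 genes. The annotation release and the strand setting were not given in the sources used here. A deposited table of CPM values was not used, and CPM were recomputed. All 12 columns were matched to a library.

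The fit used edgeR 4.0.16 under R 4.3.3 (quasi-likelihood test, TMM normalization, filterByExpr by condition) with terms for line and condition over all 12 libraries. The cell line is the replicate block, since libraries of 1 line come from the same cells, and their deviations from the condition means correlated at 0.929 to 0.968. Between lines the values ran from -0.433 to -0.191, but removing a mean over 4 lines by itself pushes these below 0. Ratios within a line used a prior count of 2. CPM per kilobase used the length of the Ensembl canonical transcript of each gene. DESeq2 1.42.0 and limma-voom (limma 3.58.1) were alternatives, with other normalizations, filters, thinning and libraries left out. Floors cover counting error only. Nothing states that the libraries of a line were separate cultures in replicate. The p-values of the comparisons of conditions thus measure the spread between lines. Those of each line against the others measure how the differences between lines vary across the conditions. Counts of pseudogene copies were at most 0.546% of those of the parent gene.

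The 47 genes, their roles and the other lists were chosen with earlier results of these data known. Values in every library are given for the 6 genes with the lowest p in each comparison of conditions, the 8 with the widest range of line means, and *PCNA*, *MCM2*, *CDC6* and *RRM2*. From other lists, up to 3 genes of lowest p are named, and some genes of these lists are not reported here by name. *ORC1*, *GINS2*, *FEN1* and the subunit ratios were chosen after their values were seen. Figures were drawn with matplotlib 3.10.9.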

Additional observations from a re-analysis of the deposited data

Results flagged for a closer look

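Of 144 sets of 4 within-line log2 ratios (47 genes and their median in 3 comparisons), 6 held a line set apart from the others by Dixon's criterion at the 95% level. By chance about 1 in 20 would be, and the 6 do not exceed that rate. In *SIVA-D160N* vs *SIVA-WT*, HCC1954 stood above the other lines in *RRM2* (0.75), *MCM6* (0.557), *PCNA* (0.511) and *GINS1* (0.307). In *SIVA-D160N* vs control, *CDT1* was low in OVCAR8 (-0.28). In *SIVA-WT* vs control, *MCM4* was high in MDA-MB-231 (0.854). The 4 HCC1954 values share 1 pair of libraries.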

How the results depend on the processing

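*SIVA-D160N* vs control had 0 replication genes at an FDR under 0.05 under every setting but 2, DESeq2 with 1 (*CDC7*) and the filter at 1 count in any library with 3 (*UHRF1*, *MCM10*, *MCM4*). Over all genes those settings called 340 and 552 in place of 1, and the cause was not tested. Judged by an unadjusted p under 0.05, 10 genes counted there and 2 in *SIVA-D160N* vs *SIVA-WT*. The 2 became 1 with DESeq2, with its size factors, with the upper quartile and with at least 10 counts in every library, and 6 with the filter at 1 count. In either direction, 1184 of all genes met that mark in the full fit, 908 to 1161 under the settings with 1, and 1862 of 34909 with that filter. With no replicate block, both counts at an unadjusted p under 0.05 became 0, where only 24 and 5 of all 17211 genes met that mark. *PCNA* in *SIVA-WT* vs control then turned to -0.107. Without the second threshold, the calls of lines rose to 32 in OVCAR8, 30 each in MDA-MB-231 and SKOV3, and 27 in HCC1954. Of all 17211 genes, the FDR alone called 6219 higher and 5508 lower in OVCAR8, and 5996 and 5622 in MDA-MB-231. It called 6523 and 5390 in SKOV3 and 6236 and 5731 in HCC1954, so that most genes were called there as well. At 2-fold, the within-line counts fell to 6, 1 and 0 in MDA-MB-231, HCC1954 and SKOV3 for *SIVA-D160N* vs control. They fell to 2 in MDA-MB-231 for *SIVA-WT* vs control and to 1 in HCC1954 for *SIVA-D160N* vs *SIVA-WT*. Total counts as the scale gave 0 in SKOV3 for *SIVA-D160N* vs control. Counts over all genes at 2-fold, or on that scale, were not taken. Whether the replication genes passed more often than all genes there is therefore not known.

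Leaving out 1 line or 1 library at a time, the single libraries other than the HCC1954 control having been added after the data were seen, moved the count at an unadjusted p under 0.05 from 5 to 24 in *SIVA-D160N* vs control, from 0 to 1 in *SIVA-WT* vs control and from 0 to 12 in *SIVA-D160N* vs *SIVA-WT*, and leaving out all controls gave 13 there. The count over all genes, in either direction, moved as well. It ran from 1743 to 3090, from 305 to 1181 and from 348 to 1796 in the same order, and was 2155 without the controls. The genes above 0 in *SIVA-WT* vs control ran from 10 to 45, and the log2 fold changes there from -0.174 to 0.144 in *PCNA*, -0.037 to 0.265 in *MCM2*, -0.103 to 0.167 in *CDC6* and -0.074 to 0.18 in *RRM2*. Each of these genes had at least 570 counts in every library. With 1 library for each line and condition, differences inside a line have no error of their own.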
